A study of Mus musculus with 3 samples.

Results

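Sox factors are transcription factors that grip DNA through a shared HMG box and bend it. The family falls into groups by sequence, and 4 of these were contrasted here through 10 genes: SoxB (Sox1, Sox2 and Sox3), SoxC (Sox4, Sox11 and Sox12), SoxD (Sox5 and Sox6) and SoxE (Sox8 and Sox9). The SoxB factors listed here keep neural cells in the progenitor state. SoxC factors act in cells that become neurons and are needed for retinal ganglion cells to form. SoxD factors lack an activation domain of their own and modulate other Sox proteins. SoxE factors act in progenitors and in glia, Muller glia of the retina among them. A protein such as Atoh7, a basic helix-loop-helix (bHLH) factor of neurogenic progenitors, binds the short sequence CANNTG, called an E-box.

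Peaks were taken from the deposited list of Atoh7 sites when the midpoint of the peak lay within 300 kb of the RefSeq body of a listed gene. This gave 16 of 3668 peaks, around 8 of the 10 genes. The list came from a CUT&RUN study, in which an antibody steers a nuclease to cut out the DNA beside a bound protein. The source of all 3 libraries was mouse retina of strain C57Bl6/J, collected on embryonic day 14. An antibody to Atoh7 was used for 2 of them and control IgG for the third, and the labels name no other allele or treatment. They do not tie the Atoh7 replicates to animals, and whole retina mixes progenitors with newborn neurons, so the list does not say in which cells a site was bound. Each peak has a position and a width on the mm10 build but no height and no value per library. Depth, the spread between replicates and the IgG background could therefore not be set beside any value below, no test between groups was possible, and intervals cover the counting of peaks or genes only.

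Promoters of 8 of the 10 genes were matched in a RefSeq table (GRCm38.p6, the assembly mm10 names), which gives 13 start sites for them, 6 of these for Sox6. Sox3 and Sox9 had no entry. None of the 13 promoters, each taken from 250 bases before to 50 after the start, was overlapped by a peak, where 3.63% of 21045 promoters of protein-coding genes were. The 250 bases before 4 of these starts are shown 5′ to 3′ because they hold E-boxes of SoxC, SoxD and SoxE genes where no listed peak lay. Capitals mark CANNTG.
Sox4 (chr13:28953700-28953949, minus strand): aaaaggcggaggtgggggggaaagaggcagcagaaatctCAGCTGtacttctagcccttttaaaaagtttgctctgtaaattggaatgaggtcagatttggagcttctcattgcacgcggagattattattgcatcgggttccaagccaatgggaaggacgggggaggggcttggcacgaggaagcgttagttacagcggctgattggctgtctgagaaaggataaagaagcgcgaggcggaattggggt
Sox11 (chr12:27342719-27342968, minus strand): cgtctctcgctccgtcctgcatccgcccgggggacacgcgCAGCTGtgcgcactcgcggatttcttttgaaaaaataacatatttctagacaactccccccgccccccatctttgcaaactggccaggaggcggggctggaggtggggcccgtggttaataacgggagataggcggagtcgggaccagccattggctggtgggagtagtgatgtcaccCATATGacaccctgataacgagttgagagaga
Sox6 (chr7:116038745-116038994, minus strand): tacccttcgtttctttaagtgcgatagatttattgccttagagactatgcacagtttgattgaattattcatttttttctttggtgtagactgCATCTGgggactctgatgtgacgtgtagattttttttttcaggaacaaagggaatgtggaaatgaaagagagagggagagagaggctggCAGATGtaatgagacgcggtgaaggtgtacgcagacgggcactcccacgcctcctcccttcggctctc
Sox8 (chr17:25570687-25570936, minus strand): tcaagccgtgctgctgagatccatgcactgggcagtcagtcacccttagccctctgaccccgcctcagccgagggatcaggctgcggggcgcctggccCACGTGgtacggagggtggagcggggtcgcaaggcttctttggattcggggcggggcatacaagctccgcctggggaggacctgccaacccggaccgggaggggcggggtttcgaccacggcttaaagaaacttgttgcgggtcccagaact
The Sox4 and Sox11 stretches each hold CAGCTG, and Sox11 also holds CATATG. The Sox6 stretch, before the start with the highest coordinate, holds CATCTG and its reverse complement CAGATG, and the Sox8 stretch holds CACGTG.

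E-boxes were common in promoters in general. CANNTG reads as the same pattern on both strands. It was found in 11 of 13 member promoters (84.6%) and in 69.0% of all promoters of protein-coding genes. The 13 belong to 8 genes, and every Sox6 start held CANNTG, so the 84.6% counts 1 gene repeatedly. No excess over all promoters can be read from it. CAGCTG was found in 3 member promoters, 1 each of Sox4, Sox11 and Sox6, and in 15.7% of all. CATCTG on either strand was found in 2, both of Sox6, and in 14.4% of all. Both motifs are instances of CANNTG, so the counts overlap. Over all genes, CAGCTG was held by 27.2% of the 764 promoters that a peak overlapped and by 15.3% of the 20281 that none did, whereas CATCTG was held by 14.0% and 14.4%. The promoters of Sox1 and of the single listed Sox5 start held no CANNTG. That Sox5 start, at 143947106, lies inside the gene body, 499 kb from the nearest peak. The promoter at the high-coordinate end of Sox5, where its longest form begins, was not read. These matches describe letters in a window and not bound sites.

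Inside or outside the gene, the place of the 16 peaks set only SoxD apart, and SoxD holds the long members. Gene length and group cannot be told apart in this split. Sox5 and Sox6, the SoxD members of 954 and 570 kb, held peaks inside the gene. Every other member is shorter than 10 kb and had any peaks far outside. Over all protein-coding genes, a peak lay inside 46.7% of those of 500 kb or more and 1.65% of those of 10 kb or less. In all, 3 peaks lay inside Sox5 or Sox6, 0 lay outside a gene but within 100 kb, 6 lay at 100 to 200 kb and 7 at 200 to 300 kb. A peak within 300 kb was present for 8 of 10 members (80.0%, 95% Wilson interval 49.0 to 94.3%), beside 58.5% of 21631 protein-coding genes. Within 100 kb the count was 2 of 10 (20%, 5.67 to 51.0%), beside 34.9%. Within 50 kb it was again 2, beside 24.4%, and within 500 kb it was 9, beside 70.3%. The background shares at 100 and 300 kb lie inside the intervals, so no difference from protein-coding genes at large could be read from these counts. With 10 genes the intervals are too wide to show that there is none. The median distance from gene to nearest peak was 194 kb for the members and 208 kb for all protein-coding genes.

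**Figure D1:**
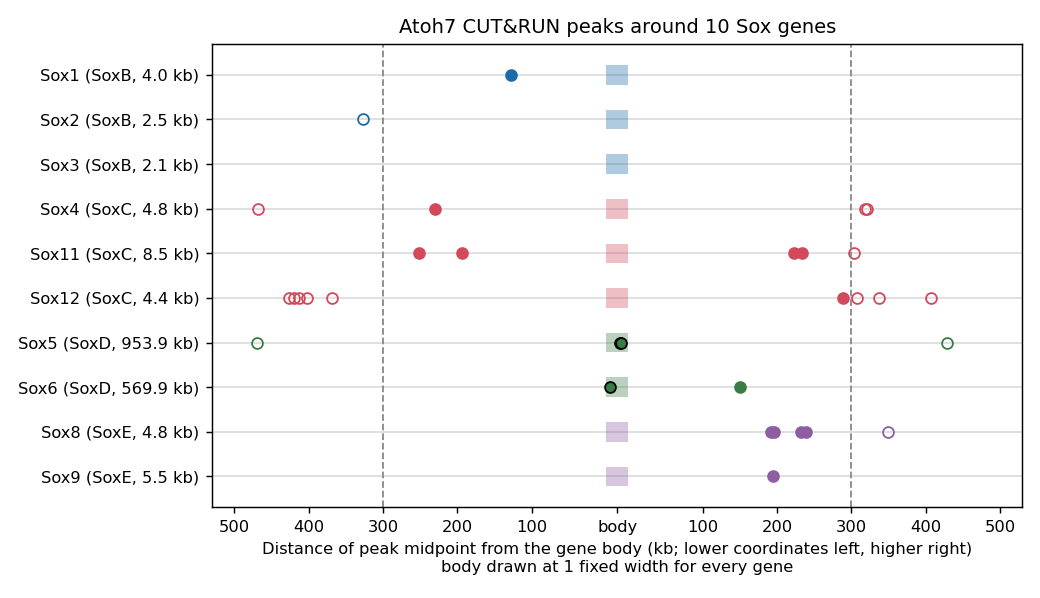
Listed Atoh7 peaks around the 10 Sox genes, plotted by distance in kb from the gene body (shaded, drawn at one width for every gene, with its true length in the label). Filled points lie within 300 kb (dashed lines), open points beyond it, and points with a black edge lie inside the gene at their relative position. Apart from the 3 points in Sox5 and Sox6, no point lies closer than 127 kb.

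Among the member groups, SoxB, whose members here are progenitor genes, had the fewest peaks, with 1 peak around 3 genes. This holds for these 3 genes only. Sox14 and Sox21, SoxB genes that are not members, had 2 peaks each within 300 kb. Sox2, which maintains retinal progenitors, had 0 peaks within 300 kb. Its nearest peak lay 327 kb upstream on chromosome 3 at 34322734 to 34323147 (414 bp wide), inside the long noncoding RNA gene Gm38505. On the other side the next peak was 1.90 Mb away. Sox2 sits in a gene desert, with Dnajc19 and Atp11b, its neighbouring protein-coding genes, 569 and 1102 kb off. Among the 281 protein-coding genes with no coding neighbour within 300 kb, 36.3% had a peak in that distance.

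Sox1, which acts with Sox2 in early neural cells, had 1 peak, 127 kb upstream on chromosome 8 at 12268142 to 12268638 (497 bp). This was the closest peak to any member other than Sox5 and Sox6, yet it lay nearer to another gene, A230072I06Rik, at 8.54 kb. Sox3, an X-linked progenitor gene, had no peak within 500 kb. The nearest lay 2.39 Mb away at 58503724 to 58503964 on chromosome X, and the stretch without a peak that holds Sox3 was 11.97 Mb long. The X chromosome as a whole had 0.217 peaks per Mb, against 1.40 over chromosomes 1 to 19 and X. The distance of Sox3 exceeded that of 95.2% of protein-coding genes, that of Sox2 exceeded 60.3% and that of Sox1 39.4%.

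SoxC genes, those of differentiating neurons, had 6 peaks, 4 of them around Sox11. Sox11, which acts together with Sox4 in ganglion cell formation, had peaks on both sides on chromosome 12. Downstream were a peak at 27140287 to 27140728 (442 bp), 194 kb from the gene and 289 bp from the long noncoding RNA gene Gm9866, and one at 27083154 to 27083332 (179 bp), 251 kb away inside the long noncoding RNA gene Gm30515 and 307 bp from Gm30401, another noncoding gene. Upstream were a pair 9.69 kb apart, at 27565841 to 27566516 (676 bp) and 27575662 to 27576083 (422 bp), 223 and 233 kb from the gene. The 676 bp peak was the widest of the 16 and wider than 93.3% of all peaks, and the 179 bp peak the narrowest. Width is not a measure of occupancy.

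Sox11 was the nearest protein-coding gene to all 4, since Cmpk2 and Dcdc2c, its neighbours, lay 854 and 1095 kb away. At least 4 peaks within 300 kb were found for 12.9% of all protein-coding genes and for 9 of the 281 genes with no coding neighbour in that distance (3.2%), of which Sox11 was 1. The cut of 4 is the count of Sox11 itself and was not set in advance, so these shares are a description only. Just outside the limit, a further peak lay 304 kb upstream.

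Sox4 had 1 peak, 230 kb downstream on chromosome 13 at 28718414 to 28718902 (489 bp), inside the long noncoding RNA gene 2610307P16Rik, with Sox4 as the nearest protein-coding gene. Just beyond the limit, a pair of peaks lay 318 and 321 kb upstream inside Cdkal1, a tRNA-modifying enzyme gene. Sox12, the third SoxC gene, had 1 peak, 289 kb upstream on chromosome 2 at 152686776 to 152687094 (319 bp), inside the protease gene H13. Unlike the other SoxC genes, Sox12 lies among 24 other protein-coding genes within 300 kb. A second H13 peak fell just outside the limit at 308 kb. Chosen after its position was seen, a peak 337 kb from Sox12 lay 987 bp from Id1, which encodes an inhibitor of bHLH binding.

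The peak-free stretch that holds each gene measured 0.425 Mb at Sox11, 0.553 Mb at Sox4 and 0.661 Mb at Sox12 among SoxC genes. Sox1 was close to these with 0.688 Mb, while Sox2 had 2.23 Mb. Among SoxE genes it was 0.875 Mb at Sox8 and 3.33 Mb at Sox9. The number of peak numbers missing from the list in such a stretch bounds how many further calls the authors made there and did not list, since the numbers in the peak names rise along each chromosome. It was 3 at Sox11, 2 at Sox4, 2 at Sox12, 5 at Sox2, 2 at Sox9 and 1 at each of Sox1, Sox3 and Sox8. Over the whole list 51.1% of numbers were present, and where in a stretch the missing calls lay is unknown.

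SoxD genes were the members with peaks inside. Sox5, which spans 954 kb on chromosome 6 (143828425 to 144782287), held 2 peaks, at 144446101 to 144446316 (216 bp) and 144481235 to 144481453 (219 bp). They lay 35.1 kb apart and 336 and 301 kb from the high-coordinate end, where the longest form of this minus-strand gene begins. Both were narrow, with 11.0% and 11.9% of all peaks narrower. Sox5 had no peak in its flanks within 300 kb, the next being 429 kb upstream, 53 bp from Casc1.

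Sox6, with a body of 570 kb on chromosome 7 (115470872 to 116040776), held 1 peak at 115568737 to 115569260 (524 bp), 98.1 kb from its low-coordinate end and 233 kb from the closest of its 6 start sites. A second, narrow peak (199 bp) lay 150 kb upstream at 116191119 to 116191317, inside the junction protein gene Plekha7. Whether the peaks in Sox5 and Sox6 fall in exons or introns was not analysed here. A peak inside the gene was found for 7.17% of all protein-coding genes but for 46.7% of the 227 genes of 500 kb or more, so holding one is common at this length. Per Mb, the 2 bodies held 1.97 peaks (exact 95% Poisson interval 0.406 to 5.75), beside 1.40 over all chromosomes.

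SoxE genes had 5 peaks, 4 around Sox8 and 1 around Sox9. The Sox8 peaks all lay upstream on chromosome 17, in 2 pairs. The first pair, at 25761727 to 25762079 (353 bp) and 25765883 to 25766362 (480 bp), lay 191 and 195 kb from Sox8 but 7.53 kb from the mesothelin gene Msln and 7.65 kb from Ciao3, an iron-sulfur protein assembly gene. The second, at 25803154 to 25803390 (237 bp) and 25809562 to 25810123 (562 bp), lay 233 and 239 kb away, the one 5.19 kb from the F-box gene Fbxl16 and the other inside it. Sox8 is set among 28 other protein-coding genes within 300 kb, and none of its peaks had it as the nearest. At least 4 peaks, the count of Sox8 itself, were found for 23.5% of the 4907 genes with at least 20 such neighbours. Over all protein-coding genes the share was 12.9%.

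Sox9, which acts in progenitors and Muller glia, had 1 peak, 195 kb away on chromosome 11 at 112982232 to 112982700 (469 bp). It had no coding neighbour within 300 kb and was the nearest protein-coding gene to its peak, with the long noncoding RNA gene 2610035D17Rik 61.4 kb from the peak. On the low-coordinate side the next peak lay 3.13 Mb away. The nearest peaks of Sox8, Sox11 and Sox9 lay at 191, 194 and 195 kb, and those of Sox4, Sox12 and Sox2 follow at 230, 289 and 327 kb. In that order, these distances exceeded those of 48.0%, 48.3%, 48.4%, 52.3%, 57.6% and 60.3% of protein-coding genes.

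**Figure D2:**
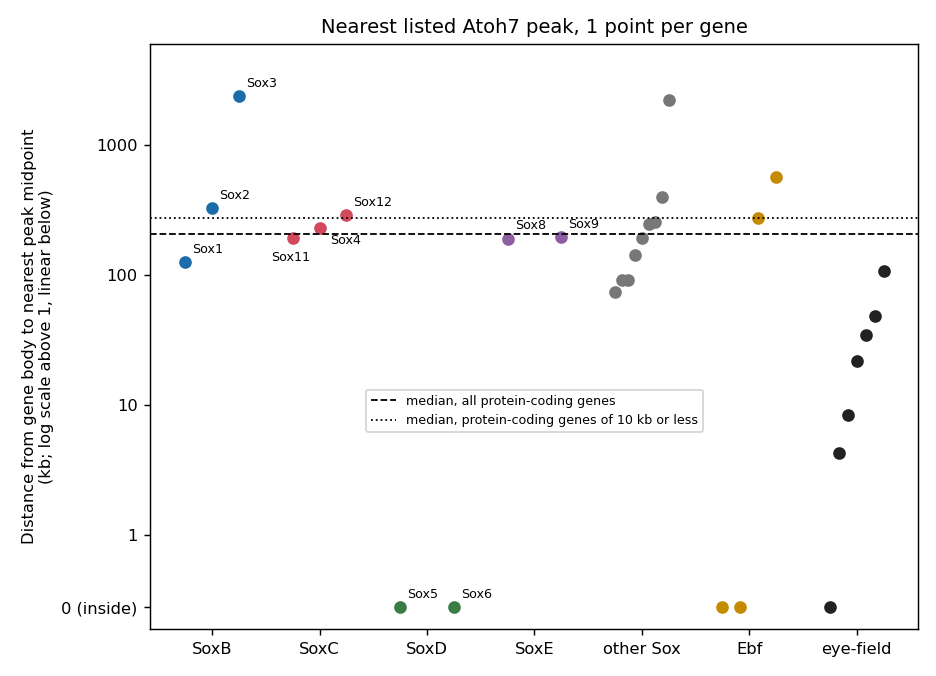
Distance in kb (log scale above 1, linear below) from each gene body to its nearest listed peak, 1 point per gene, for the 4 Sox groups, 9 other Sox genes, 4 Ebf genes and 7 eye-field and progenitor homeobox genes. Sox5 and Sox6 sit at 0 and Sox3 at 2388 kb, while the other 7 members lie between 127 and 327 kb, around the medians of all protein-coding genes (208 kb) and of those of 10 kb or less (277 kb).

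By density the groups ran from SoxB to SoxE. Counting body and flanks, SoxB windows held 0.553 peaks per Mb (exact 95% Poisson interval 0.0140 to 3.08), SoxD 1.47 (0.400 to 3.76), SoxC 3.30 (1.21 to 7.18) and SoxE 4.13 (1.34 to 9.64). The SoxD value rests on its long gene bodies, and in SoxD flanks alone it was 0.833 (1 peak, 0.0211 to 4.64), while flanks alone gave 0.556 for SoxB, 3.33 for SoxC and 4.17 for SoxE. All 4 intervals overlap one another and contain the 1.40 of all chromosomes, and peaks come in clusters, which makes such intervals too narrow. The contrast between SoxC and SoxB therefore rests on 6 peaks against 1 and was not distinguishable at these counts.

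**Figure D3:**
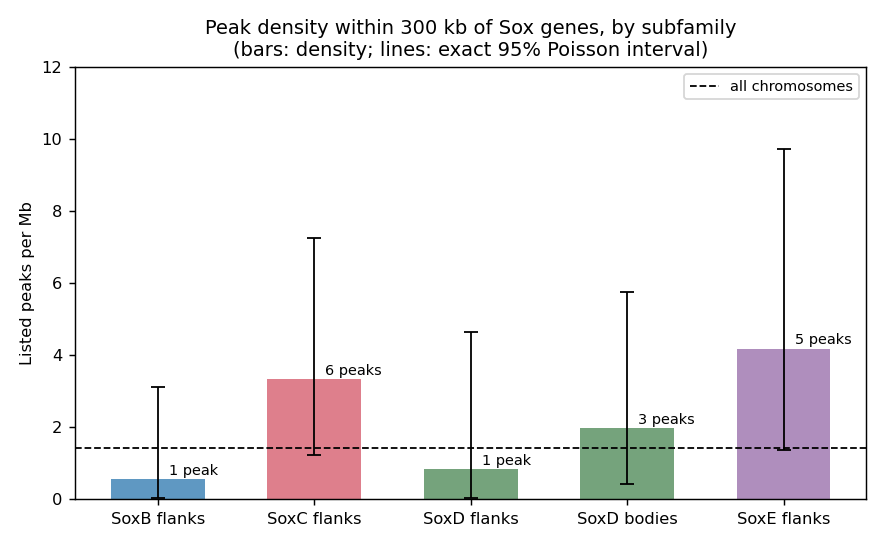
Listed peaks per Mb in the flanks of up to 300 kb of each group and inside the SoxD genes, with exact 95% Poisson intervals as lines and the number of peaks above each bar. The lines all cross the dashed line of 1.40 peaks per Mb over all chromosomes.

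Which gene a distant peak belongs to is a matter of assignment. Of the 16 peaks, 9 had the member as nearest protein-coding gene, namely those inside Sox5 and Sox6, the 4 around Sox11 and 1 each at Sox4 and Sox9. The other 7 were all within 10 kb of another protein-coding gene, 3 of them inside it. With a limit of 100 kb, only the 3 peaks in Sox5 and Sox6 would be assigned, giving 2 of 10 members an assigned peak, beside 11.1% of protein-coding genes. Relative to the direction of transcription, 9 peaks lay upstream and 3 downstream, leaving out those inside genes and the 1 at Sox9. The upstream count includes all 7 peaks nearer to another protein-coding gene, and its only others are the pair at Sox11. The upstream share over all genes was not computed. The 16 peaks had a median width of 432 bp, beside 381 bp for the list, and 9 had another peak within 50 kb, as did 35.7% of all peaks.

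Gene length divides the members between SoxD and the other groups, so length and group cannot be told apart there. The 8 members outside SoxD are all shorter than 10 kb, and with Sox5 and Sox6, the members holding peaks inside, thus set apart, 0 of them had a peak within 100 kb (95% Wilson interval 0 to 32.4%), beside 29.6% of 7742 protein-coding genes of that size. Within 300 kb the count was 6 of 8 (75%, 40.9 to 92.9%), beside 51.8%. Both background shares lie inside the intervals, so no difference could be read, and 8 genes are too few to show that there is none. Gene density also moved with the counts. In the fifth of protein-coding genes with the fewest coding neighbours, to which all members but Sox8 and Sox12 belong, 27.1% had a peak within 100 kb and 47.4% within 300 kb, against 44.8% and 67.6% in the fifth with the most. The part of length and gene density in the members' counts was not tested.

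Of the 9 other Sox genes, 0 held a peak inside the gene. In this list 7 genes had a peak within 300 kb (77.8%, 20 peaks in all), beside 58.5% of protein-coding genes. Within 100 kb it was 3 (33.3%), beside 34.9%. These were Sox14, a SoxB gene of interneurons, at 74.6 kb, Sox10, a SoxE gene of the neural crest, at 91.8 kb, and Sox18, an endothelial gene, at 92.4 kb. Sox21, a SoxB gene of the repressor type, had its nearest peak at 255 kb, Sox13, a SoxD gene of 42.2 kb, at 194 kb, Sox15 at 144 kb, Sox7 at 248 kb, Sox30 at 401 kb and Sox17 at 2232 kb. Over all 19 Sox genes, a count made after these values were seen, 2 had a peak within 50 kb (10.5%, 95% Wilson interval 2.94 to 31.4%), namely Sox5 and Sox6, beside 24.4% of protein-coding genes and 22.1% of those of 50 kb or less, both inside the interval.

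Eye-field and progenitor homeobox genes, which share the progenitor setting with the SoxB members, had peaks at closer range. A peak lay within 100 kb of 6 of 7 (85.7%), beside 34.9% of all protein-coding genes, and the median nearest distance was 21.95 kb. The nearest peak was at 4.26 kb for Six3, at 8.37 kb for Pax6 and inside Meis1, the closest of the list. For Six6, the farthest, it was at 108 kb. The list was chosen with earlier results of these data known. Gene length ran from 4.45 to 206 kb in this list and from 2.07 to 4.04 kb in SoxB, and its part was not tested. Of the 4 Ebf genes, helix-loop-helix factors of differentiating neurons, Ebf2 and Ebf3 held 2 peaks each inside the gene, while Ebf4 and Ebf1 had their nearest at 273 and 570 kb. The difference between these lists and the Sox genes was not tested, and the lists are set side by side only.

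**Figure D4:**
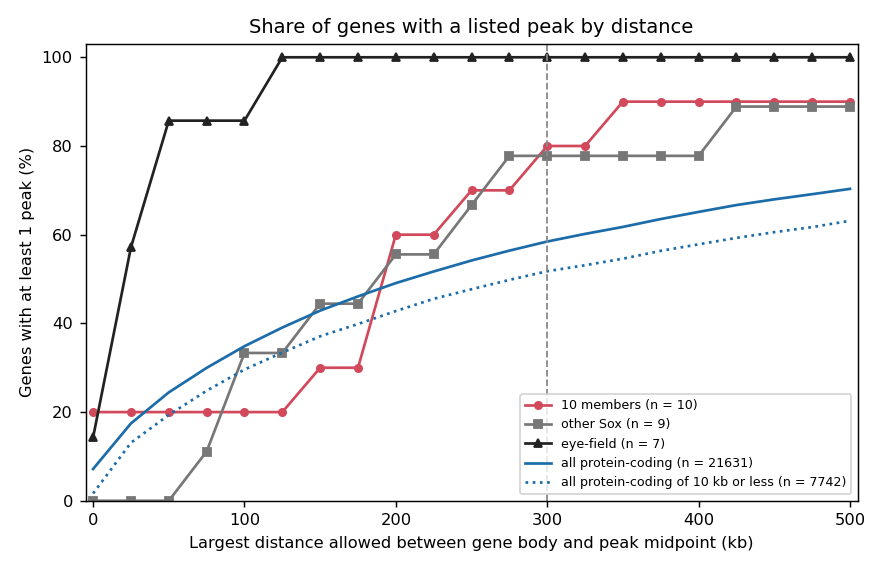
Percent of genes with at least 1 listed peak midpoint within the distance on the x axis (kb), for the 10 Sox genes, 9 other Sox genes, 7 eye-field and progenitor homeobox genes and all protein-coding genes, with those of 10 kb or less dotted. The 10 Sox genes stay at 20%, from Sox5 and Sox6, up to 125 kb and reach 80.0% at 300 kb (dashed line), while eye-field and progenitor homeobox genes are at 85.7% by 100 kb.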

How the data were processed

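The submitters' processing notes name MACS2 2.2.7.1 as peak caller among the authors' tools, with the aligner Bowtie2 2.3.5, on mm10; bedtools, Picard 2.0.1 and SAMtools are named too. Their order and settings, the use of IgG and of the second Atoh7 library, and the step that removed calls are not given in the sources used here. The deposited table gives position and width only, counted from 1, per the file headers, and every peak name begins with Atoh7_R1.

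Genes and promoters came from RefSeq tables of GRCm38.p6. No genome sequence was used here, so peak sequences were not read. Distances run from the peak midpoint to the gene body, 0 inside. Backgrounds are all 21631 protein-coding genes of chromosomes 1 to 19 and X. Peaks per Mb over all chromosomes use the span from the first to the last gene or peak. A neighbour is another protein-coding gene within 300 kb.

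The members and lists were chosen with earlier results of these data known. All members and other Sox genes are named, with the nearest protein-coding gene of each peak, noncoding genes within 1 kb of a peak, neighbours, and up to 4 genes of each comparison list; any further name was picked once its position was known. The list of eye-field and progenitor homeobox genes was counted over 7 genes, and 1 more gene chosen for it is not reported here. The window functions matched direct enumeration on 500 genes with simulated peaks (0 mismatches). Intervals were computed with scipy 1.17.1, tables with pandas 2.3.3 and numpy 2.4.6 in Python 3.11.15, and plots with matplotlib 3.10.9.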

Additional observations from a re-analysis of the deposited data

How the results depend on the processing

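The distance that counts as near set most values. Within 50 kb and within 100 kb alike, 2 members had a peak and 3 peaks lay near members, with 0 for SoxB, 0 for SoxC and 0 for SoxE, while the share of protein-coding genes with a peak was 24.4% and 34.9%. Within 500 kb, 32 peaks lay near members, 2 for SoxB and 18 for SoxC, and the share of genes was 70.3%. SoxC gained most there, 8 of its 12 added peaks being within 500 kb of Sox12. Each of these 8 lay nearer to another protein-coding gene, at most 15.9 kb away. Among all 12, only the peak 304 kb from Sox11 had a SoxC gene as nearest protein-coding gene. With the wider 50% of peaks, 9 lay near members, 1 for SoxD and 3 for SoxE, and the share of genes was 39.4%. Background shares chosen after the data were seen included 51.8% for genes of 10 kb or less and 47.4% for the fifth with the fewest neighbours. The shares for 4 or more peaks, and those for genes with no or with at least 20 coding neighbours, were not planned either. With no limit on distance, 10 peaks had a member as nearest protein-coding gene, against 3 within 100 kb. CAGCTG or CATCTG was held by 30.8% of member promoters, against 84.6% for CANNTG. Both shares count each Sox6 start singly.

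Of 42 alternative values, 18 were classed as kept, among them those for any overlap of 1 bp and for distance to the nearest peak edge. Kept does not mean unchanged. Peaks near SoxD members went from 4 to 6 within 500 kb, and members with a peak from 8 to 6 with the wider 50% of peaks. A background share of 51.8% against 58.5% was classed as moved. Density in flanks alone stayed within the Poisson interval of each group, but for SoxD it fell from 1.47 to 0.833 peaks per Mb. E-box shares inside peaks were not run, since peak sequence was not used here. No paired analysis was possible because libraries have no values of their own here, and leaving out a library was not possible for the same reason. Depth is unknown and limits cannot be set from it.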
